A study of Rattus norvegicus with 20 samples.

Results

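The transcriptional effect of islet amyloid polypeptide (IAPP, also called amylin) in the presence of C4b-binding protein (C4BP) was read from 10 of the 20 Affymetrix Rat Gene 2.0 arrays of the study, as 5 arrays titled C4BP against 5 arrays titled C4BPD. The arrays were chosen by the word in their title alone, with no measured value. All wells held INS-1 cells, which derive from a rat insulinoma, secrete insulin and serve as a model of the beta cell. The study asked how IAPP and C4BP, each alone and both together, alter these cells.

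The wells titled C4BP were read as monomeric IAPP (77 uM) given together with C4BP (0.6 uM), and the wells titled C4BPD as C4BP (0.6 uM) without IAPP. The remaining 10 arrays were titled IAPP (IAPP, 77 uM, with no C4BP) and DMSO (1% DMSO, the solvent of IAPP), 5 each. The reading used here does not settle whether the wells titled C4BPD also held the solvent. The sample protocols give both proteins as 300 ug/ml in place of the molar doses. Cells were kept as 5 clones for 10 passages, plated at 100000 per well and grown for about 48 h, and RNA was taken 10 h after the proteins were added. The labels do not say whether the title numbers 1 to 5 name the clones, so p-values measure the spread between these arrays. The titles C4BP and C4BPD are not spelled out, and the reading above is the likely one. A separate treatment field contradicts it: it gave the same condition as the title for 1 of the 10 arrays titled C4BP or C4BPD and for 3 of all 20. When arrays were grouped by that field instead, 0 genes passed the threshold in any comparison, so every result below rests on the titles.

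Amylin is stored in the granules of beta cells and released together with insulin. The human peptide aggregates into oligomers and fibrils that injure beta cells, while the rat peptide, which INS-1 cells make themselves, does not form amyloid. The labels do not say which species' IAPP was added. C4BP circulates in plasma as an inhibitor of complement and binds amyloid deposits. Injured beta cells are known to induce antioxidant genes through the transcription factor NRF2, amino acid synthesis and transport genes through ATF4, and early genes of the AP-1 family.

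The deposited values are intensities on a linear scale, summarised per probe set by the authors. Array medians lay between 170.01 and 181.73 in C4BP and between 173.58 and 180.58 in C4BPD, no pair of the 20 arrays was identical, and array-to-array correlations of log2 intensity ran between 0.985 and 0.996. Within their groups C4BPD 1, C4BP 2 and C4BP 3 lay farthest from the mean, with root mean square deviations of 0.147, 0.143 and 0.141 on the log2 scale over all genes. Probe sets with exactly 1 gene symbol gave 18166 genes. Each was tested with limma on the log2 intensities in 1 model of all 20 arrays, with p-values adjusted by the Benjamini-Hochberg method over all genes and a threshold of 0.05 on the adjusted p. A gene is said to have risen or fallen only where it passed that threshold. Bulk arrays cannot tell fewer cells of a kind apart from less RNA per cell.

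With IAPP added to C4BP, 431 genes (2.37%) passed the threshold, 137 higher (0.754%) and 294 lower (1.62%) in C4BP than in C4BPD. Most differences were small: the median size among the 431 was 0.27 on the log2 scale, 22 genes differed at least 1.5-fold and 3 at least 2-fold. The largest rises were in Hmox1, the inducible heme-degrading enzyme, in Jun, a subunit of AP-1, in Cpt1a, which admits fatty acids to mitochondria, and in the metallothioneins Mt1f and Mt1. Large falls were in the orphan nuclear receptor Nr4a1 and the vitamin D receptor Vdr. The microRNA gene Mir19b2 also passed, but its mean in C4BP (53.8) was under the median of the array's background probe sets (57.8), so its fold and its rank are not firm. The medians of the 23 background probe sets ran from 5.65 to 1038, so 57.8 is not a fixed floor for every probe set. The arrays of C4BP and C4BPD did not overlap at all for 366 of the 431 genes, while over all genes 1.36% lay wholly higher and 2.37% wholly lower in C4BP. Such separation was thus common among genes that passed, and it is given below as a description only. The median log2 difference of all genes was 0.01. Of the genes named here, 10 kept their calls in all 20 fits without 1 array but lost them without all arrays of a title number: Cacnb2, Derl3, Fdft1, Gabra2, Gdf15, Hsd17b7, Ndrg1, Nfkb2, Npc1 and Smad7.

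**Figure D1:**
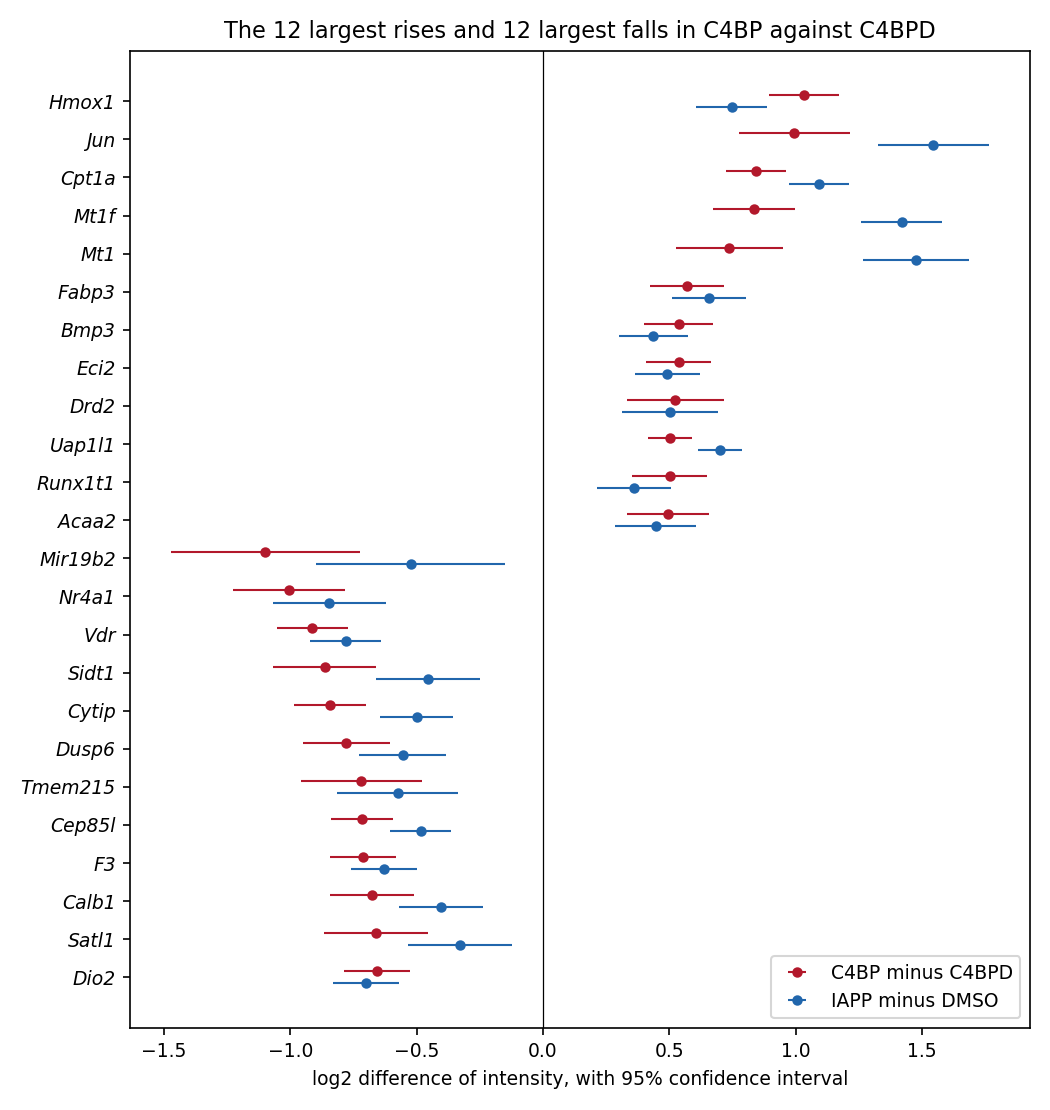
The 12 largest rises and the 12 largest falls among genes past the threshold in C4BP against C4BPD, by gene (vertical axis), as log2 differences of intensity with 95% confidence intervals (horizontal axis) from limma, n = 5 arrays per group. Red points are C4BP minus C4BPD and blue points IAPP minus DMSO, and for all 24 genes both points lie on the same side of 0.

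Among genes of the antioxidant response 7 of 22 passed, all higher with IAPP, where 0.754% of all genes were higher. Of the NRF2 list, 0 members fell and 15 did not pass, with a median log2 difference of 0.14 against 0.01 over all genes. Hmox1 stood at intensities of 584.5, 541.0, 462.3, 576.6 and 501.4 in the 5 C4BP arrays, against 252.9, 266.8, 246.0, 251.1 and 282.2 in the 5 C4BPD arrays. The lowest C4BP array was well above the highest C4BPD array. The difference was 2.05-fold (log2 difference 1.03, SE 0.0669; limma, adjusted p = 2.49e-08). Hmox1 opens the heme ring and releases iron, carbon monoxide and biliverdin.

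The other 6 members that rose act in the thiol and detoxification branches of the same response. Srxn1, sulfiredoxin, which repairs overoxidised peroxiredoxins, averaged 513 ± 8.82 in C4BP and 408 ± 27.9 in C4BPD (SD, n = 5 each), a log2 difference of 0.33 (limma, adjusted p = 7.32e-05). Osgin1, an oxidative-stress-induced growth inhibitor, averaged 328 ± 29.1 in C4BP and 240 ± 19.8 in C4BPD, a log2 difference of 0.45. The catalytic and modifier subunits of glutamate-cysteine ligase, which makes the precursor of glutathione, rose by 0.31 (Gclc) and 0.21 (Gclm) on the log2 scale. The arrays of the 2 groups did not overlap for any of these 4 genes. Ephx1, the microsomal epoxide hydrolase, rose by 0.21 and Txnrd1, the cytosolic thioredoxin reductase, by 0.15 on the log2 scale. With single arrays left out in turn, in 20 fits, their calls were lost in 5 (Ephx1, adjusted p up to 0.0798) and 15 (Txnrd1, up to 0.126). Among members that did not pass, the ferritin light chain gene Ftl1 differed by 0.14 and the quinone reductase Nqo1 by 0.20 on the log2 scale (adjusted p = 0.119 and 0.152), and the ferritin heavy chain gene Fth1 by 0.01.

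Metallothioneins, small cysteine-rich proteins that bind zinc and copper, were the brightest genes among the large rises. Mt1 read 8387, 9647, 9113, 9684 and 9710 in the C4BP arrays, against 5538, 5384, 5976, 5422 and 5565 in the C4BPD arrays. The groups were well apart. The rise was 1.67-fold (log2 difference 0.74, SE 0.101; limma, adjusted p = 0.00018). Mt1f averaged 4304 ± 276 in C4BP and 2412 ± 142 in C4BPD, 1.78-fold (adjusted p = 1.19e-06). Mt1 and Mt1f are close relatives, and probes shared in signal between them were not tested. The list of metal response genes had 2 of 9 measured members higher, these 2, where 0.754% of all genes were higher. Of the rest, 0 were lower and 7 did not pass. The zinc exporter Slc30a1, also a metal-induced gene, had a log2 difference of 0.04 (adjusted p = 0.903), and Mt3 and Mt2A had -0.01 and 0.13.

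The metallothionein promoters are known to carry metal response elements, which bind the zinc-sensing factor MTF1. The Mt1 promoter in RefSeq's rat assembly GRCr8 (chr19:10832926-10833225, minus strand) is shown 5′ to 3′ on the gene's strand because Mt1 had the largest intensities of the genes that rose most. Capitals mark the element's core, searched on both strands as TGCACNC and TGCGCNC, where N is any base, and a match on the other strand reads GNGTGCA or GNGCGCA here.
Mt1: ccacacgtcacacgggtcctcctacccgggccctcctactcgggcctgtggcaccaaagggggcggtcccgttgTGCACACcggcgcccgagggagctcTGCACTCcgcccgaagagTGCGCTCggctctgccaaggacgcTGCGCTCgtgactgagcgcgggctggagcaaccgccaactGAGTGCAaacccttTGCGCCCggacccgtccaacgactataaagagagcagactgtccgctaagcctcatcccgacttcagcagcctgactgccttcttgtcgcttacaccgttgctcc
The 300 bases, 250 before the start site and 50 after it, held 6 matches, 3 of each form. Over 27457 rat promoters of that length, 12.2% held the first form and 15.0% the second, and 0.189% and 1.04% held 3 or more matches of it. Among the 8 members of the metal list with a promoter in the table, 7 held each form, including Slc30a1, whose intensity did not pass. The promoter without a match was that of Mt1f, which held 0 matches of either form and whose log2 difference (0.84) was above that of Mt1 (0.74). A match is a description of the letters and not of binding.

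Jun, which pairs with Fos proteins to form AP-1, read 643.0, 810.9, 774.0, 819.8 and 732.6 in C4BP, against 358.1, 348.4, 397.5, 383.5 and 404.9 in C4BPD. All 5 C4BP arrays were above all 5 C4BPD arrays. The difference was 1.99-fold (log2 difference 1.00, SE 0.105; limma, adjusted p = 8.71e-06). Its partner Fos went the other way, at 226 ± 14.1 in C4BP and 287 ± 21.2 in C4BPD, a fall of 0.34 on the log2 scale (adjusted p = 0.000332). Of the 28 measured members of the AP-1 and early response list, 2 rose, 2 fell and 24 did not pass. Among all genes 0.754% rose and 1.62% fell. The second rise was in the early growth response gene Egr4 (0.30 on the log2 scale), whose call was lost in 5 of the 20 fits without 1 array (adjusted p up to 0.0675). The second fall was in Phlda1, a pleckstrin homology domain protein, with a log2 difference of -0.33. Atf3, a stress-induced repressor that can pair with Jun, averaged 333 ± 20.6 in C4BP and 258 ± 28.1 in C4BPD. Its log2 difference of 0.37 did not pass (adjusted p = 0.186), although the arrays did not overlap.

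Several genes of mitochondrial fatty acid oxidation rose together. Cpt1a, carnitine palmitoyltransferase of the outer membrane, read 2563, 2658, 2487, 2621 and 2611 in C4BP, against 1521, 1521, 1409, 1290 and 1484 in C4BPD. The lowest C4BP array was far above the highest C4BPD array. The rise was 1.79-fold (log2 difference 0.84, SE 0.0566; limma, adjusted p = 2.49e-08). Of the 27 measured genes of fatty acid oxidation and PPAR targets, 4 rose, 0 fell and 23 did not pass, where 0.754% of all genes rose. The list median was 0.03 on the log2 scale. The other 3 were Fabp3, a fatty acid carrier of the cytosol (1.48-fold), Slc25a20, the carnitine-acylcarnitine carrier of the inner membrane (log2 difference 0.37), and Acaa2, the thiolase of the last step (0.49). Eci2, an enoyl-CoA isomerase outside that list, rose by 0.54 on the log2 scale and was among the 12 largest rises. For Fabp3, Slc25a20, Acaa2 and Eci2 alike, each C4BP array was above each C4BPD array.

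**Figure D2:**
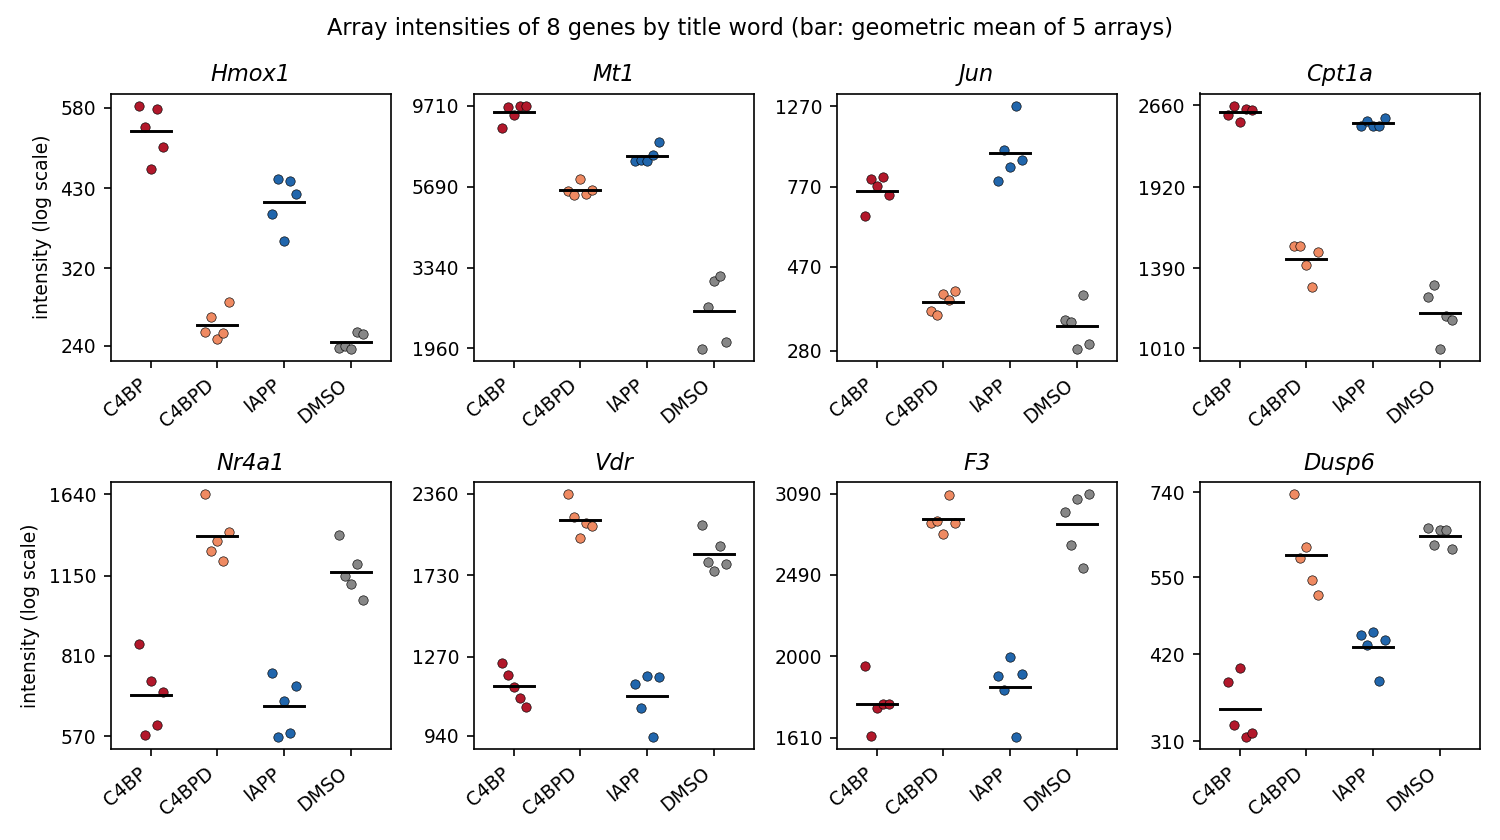
Intensity (vertical axis, log scale, a separate range for each gene) of 4 genes that rose and 4 that fell, with 1 point per array and a bar at the geometric mean of the 5 arrays of each title word (horizontal axis). For each of the 8 genes the C4BP arrays and the C4BPD arrays do not overlap, and for Mt1 the C4BPD arrays lie above the DMSO arrays.

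Other rises of at least 0.50 on the log2 scale were in Bmp3, a secreted member of the BMP family (1442 ± 73.1 in C4BP, 994 ± 78.6 in C4BPD), the dopamine receptor Drd2, the Runx1-partner corepressor Runx1t1 and Uap1l1, a relative of a pyrophosphorylase of sugar nucleotides. The arrays of the groups did not overlap for these 4 genes, as for 366 of the 431 genes that passed. Gdf15, a secreted stress hormone of the TGF-beta family, rose by 0.43 on the log2 scale (adjusted p = 0.0103), a call lost in 3 of the 5 fits without a title number (up to 0.138).

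Targets of cAMP and the transcription factor CREB, among them the NR4A orphan receptors, included 11 falls among 18 measured members, where 1.62% of all genes fell. Of the rest, 0 rose and 7 did not pass. Of the 18 differences 2 were positive, against 10169 of all 18166 genes, and the median log2 difference was -0.31. The same list had 0 higher and 11 lower in IAPP against DMSO, where its median was -0.32. In that comparison 1.41% of all genes were higher and 1.97% lower. Nr4a1 read 853.6, 572.5, 725.0, 599.2 and 691.4 in C4BP, against 1641, 1279, 1337, 1225 and 1388 in C4BPD. The highest C4BP array lay below the lowest C4BPD array. The log2 difference was -1.005 (SE 0.107; limma, adjusted p = 8.97e-06), and C4BP stood at 0.498 of C4BPD.

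Nr4a2, which in beta cells is induced by cAMP and calcium like its relatives, read 1064, 1094, 1096, 1086 and 1071 in C4BP, against 1658, 1739, 1688, 1510 and 1766 in C4BPD. The C4BP values were nearly constant and far below the C4BPD values. The log2 difference was -0.63 (adjusted p = 2.9e-07). Nr4a3 fell by 0.38 on the log2 scale, so that all 3 receptors of the family were lower. The phosphodiesterase Pde7b, which degrades cAMP, fell by 0.50, and the deiodinase Dio2, which activates thyroid hormone, fell by 0.66. Sik1, a kinase that holds CREB coactivators out of the nucleus, fell by 0.44, and Crem, a CREB-family factor with repressor isoforms, fell by 0.32. The clock genes Per1, Per2 and Nfil3, all CREB-responsive, fell by 0.41, 0.30 and 0.33. For these genes no C4BP array reached into the C4BPD range, but Per2 lost its call without C4BP 2 (adjusted p = 0.0563), C4BPD 4 (0.0514) or C4BPD 5 (0.0519). The eleventh, the phosphodiesterase Pde10a (-0.21), lost its call in 16 of 20 such fits (adjusted p up to 0.153). Irs2, the insulin receptor substrate, had -0.20 and did not pass (adjusted p = 0.058).

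The cAMP response element, searched as TGACGTC on both strands, was found in 3 of the 15 promoters of this list that the sequence table holds (Sik1, Pde10a and Ppargc1a), against 3.34% of all promoters. It was also in 5 of 19 AP-1 and early response promoters (26.3%) and 3 of 15 ERK feedback promoters (20.0%). The search covered 300 bases per gene. Of the 15 circadian clock genes measured, 4 fell and 0 rose, where 1.62% of all genes fell. They were Per1, Nfil3, Per2 and Ciart, a repressor of the clock (-0.17, a call lost in 17 of the 20 fits without 1 array, adjusted p up to 0.148). Per1, Nfil3 and Per2 are also counted among the 11 cAMP-CREB falls.

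Vdr, the nuclear receptor of vitamin D, and Calb1, a calcium-buffering protein that vitamin D is known to induce in several tissues, were both lower with IAPP. Vdr read 1239, 1184, 1131, 1085 and 1051 in C4BP, against 2355, 2161, 1992, 2114 and 2086 in C4BPD. No array of one group came near the other group. The log2 difference was -0.91 (SE 0.0667; limma, adjusted p = 7.87e-08). Calb1 averaged 1056 ± 90.4 in C4BP and 1687 ± 153 in C4BPD, a log2 difference of -0.68 (adjusted p = 3.4e-05).

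F3, tissue factor, the cell-surface starter of blood coagulation, read 1947, 1615, 1743, 1761 and 1763 in C4BP, against 2855, 2873, 2773, 3081 and 2859 in C4BPD. The groups did not overlap. It fell by 0.71 on the log2 scale (SE 0.0628; adjusted p = 7.87e-07). Dusp6, the phosphatase that inactivates ERK and is itself induced by ERK signalling, read 381.1, 328.0, 400.5, 314.5 and 318.5 in C4BP, against 735.3, 588.9, 610.5, 545.0 and 516.8 in C4BPD. Each C4BP array was below each C4BPD array, and the log2 difference was -0.78 (adjusted p = 8.71e-06). Of 20 measured ERK feedback and target genes 2 fell, Dusp6 and Phlda1, where 1.62% of all genes fell, while 0 rose. The list median was -0.02.

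Further large falls were in Sidt1, a lipid and nucleic acid transport protein of membranes (-0.86), Cytip, a partner of cytohesins (-0.84), Tmem215, a transmembrane protein (-0.72), and Cep85l, a centrosomal protein (-0.72). All 4 were separated by array, as were 366 of the 431 genes that passed. Sidt1 and Cytip were dim in C4BP, at 168 ± 32.3 and 154 ± 7.57, under the median of all probe sets (177). Satl1 fell by 0.66 on the log2 scale at still lower intensity (74.1 ± 5.75 in C4BP, 117 ± 12.8 in C4BPD). In all, 36 of the 431 genes had a lower group mean under that median.

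The probe set of Mir19b2 passed at an intensity near background. It read 53.06, 46.07, 65.49, 58.55 and 45.71 in C4BP, against 103.6, 109.3, 110.1, 112.5 and 137.6 in C4BPD. The groups were apart, all 10 values being under the median of all probe sets. The fitted log2 difference was -1.10 (SE 0.179; limma, adjusted p = 0.00109), but the C4BP mean of 53.8 lay under the median of the background probe sets (57.8), and the size of the difference is not a measured level against a level. The gene encodes a microRNA of the miR-17 family of clusters (RefSeq, GRCr8, chrX:137343058-137343153, minus strand). Its mature products are shown 5′ to 3′ because they are what the gene is known for, with the seed, bases 2 to 8, in capitals.
rno-miR-19b-3p: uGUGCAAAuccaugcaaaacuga
rno-miR-19b-2-5p: aGUUUUGCagauuugcaguucag
The array reads the gene by 1 probe set, and whether the signal came from the primary transcript, the hairpin or the mature forms was not tested.

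The effect of IAPP was also measured without C4BP, as IAPP against DMSO, on 10 arrays that share none with C4BP and C4BPD. There 614 genes (3.38%) passed, 257 higher (1.41%) and 357 lower (1.97%). The genes common to both comparisons numbered 255, which is 59.2% of the genes that passed with C4BP and 41.5% of those that passed without it. All 255 had the same sign, 86 higher and 169 lower. Of the 431 genes, 412 had the same sign in IAPP against DMSO, and of the 614 genes, 603 had the same sign in C4BP against C4BPD. Across all 18166 genes, which are not independent of each other, the log2 differences of both comparisons had a Pearson r of 0.529 and a Spearman rho of 0.434. These values describe the genes and carry no test.

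Whether the IAPP effect differed with and without C4BP was tested as the interaction, the difference of C4BP and C4BPD less that of IAPP and DMSO. It passed for 9 genes (0.0495%), 0 higher and 9 lower (688 genes at an unadjusted p under 0.05). The count was 3 without C4BP 3 or without C4BPD 5, 4 without C4BP 4, C4BPD 2, C4BPD 3, IAPP 2, IAPP 3 or DMSO 2, and 5 without C4BPD 4 or DMSO 1. With all probe sets tested it was 0. Of the 9, 8 had passed in IAPP against DMSO only and 1, Wipi1, in C4BP against C4BPD only. For the rest of the 176 genes that passed with C4BP only and of the 359 that passed without it only, the effects were not shown to differ. Hmox1 (interaction 0.29, adjusted p = 1.00), Cpt1a (-0.25, adjusted p = 0.963) and Jun (-0.55, adjusted p = 0.53) did not pass. The metallothioneins came close, at -0.58 for Mt1f (adjusted p = 0.0536) and -0.74 for Mt1 (0.0669).

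**Figure D3:**
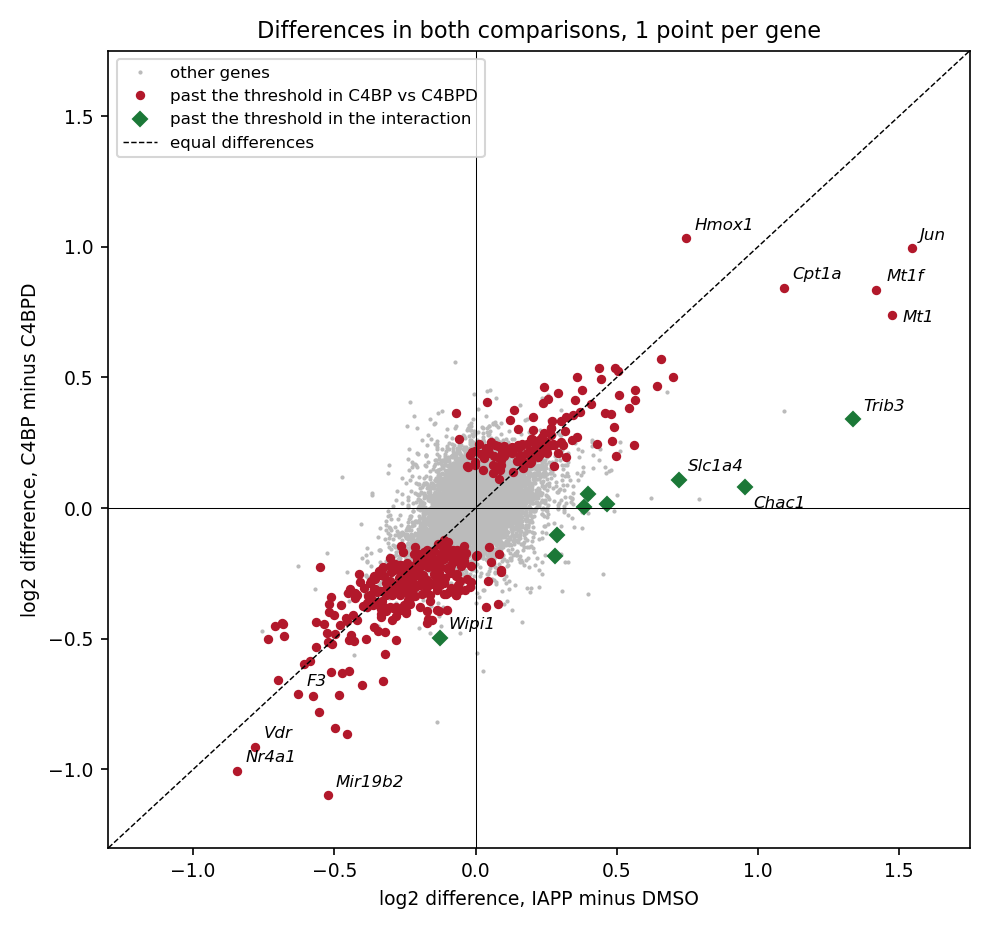
Log2 difference of C4BP minus C4BPD (vertical axis) against that of IAPP minus DMSO (horizontal axis), 1 point per gene. Red points passed the threshold in C4BP against C4BPD, green diamonds are the 9 genes past the threshold in the interaction, all below the dashed line of equal differences, and the Pearson r over all genes is 0.529.

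Of the 9 genes with an interaction, 5 belong to the amino acid response that ATF4 governs. Of the 44 measured ATF4 targets and genes of the integrated stress response, 2 rose and 0 fell in C4BP against C4BPD, while 24 rose and 0 fell in IAPP against DMSO. Among all genes 0.754% and 1.41% rose in these comparisons. The differences of 33 of the 44 were positive in the first comparison and of 37 in the second. Over all 18166 genes 10169 and 9255 differences were positive. The count of 2 ran between 0 and 7 over the fits other than that by the treatment field. The list medians were 0.06 and 0.20 on the log2 scale, and the median interaction was -0.12, against 0.01 over all genes. The interaction passed for 5 of the 44, Chac1, Slc1a4, Cars1, Iars1 and Trib3, all lower. Among all genes it passed for 0.0495%, and all 9 of these were lower, so the direction is not particular to the list. Chac1, which degrades glutathione, read 772.6, 801.8, 811.1, 803.7 and 805.3 in C4BP, against 930.8, 653.7, 779.5, 678.0 and 762.6 in C4BPD. The C4BP arrays lay within the range of the C4BPD arrays, and the log2 difference was 0.08 (adjusted p = 0.735). In IAPP it averaged 675 ± 52.0 and in DMSO 349 ± 39.8, a log2 difference of 0.95 (adjusted p = 7.96e-07). The interaction was -0.87 (SE 0.12; limma, adjusted p = 0.00949).

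Trib3, a pseudokinase that ATF4 induces, averaged 607 ± 35.6 in C4BP and 482 ± 55.1 in C4BPD, and 661 ± 145 in IAPP and 259 ± 36.5 in DMSO. Its log2 difference was 0.34 with C4BP (adjusted p = 0.169) and 1.34 without it, and the interaction was -0.997 (adjusted p = 0.0221). The neutral amino acid transporter Slc1a4 had log2 differences of 0.11 with C4BP and 0.72 without it (interaction -0.61, adjusted p = 0.0118). The cysteinyl-tRNA synthetase Cars1 had 0.02 and 0.46 (interaction -0.45, adjusted p = 0.0118), and the isoleucyl-tRNA synthetase Iars1 0.05 and 0.40 (interaction -0.34, adjusted p = 0.0221). For all 5 genes the mean of C4BPD, which held no added IAPP under the reading used, was above that of DMSO, as in the plot of these genes. The calls of Trib3 and Iars1 were lost in 7 and 8 of the 20 fits without 1 array (adjusted p up to 0.0595 and 0.0616), while Chac1, Slc1a4 and Cars1 kept theirs in all 20 (up to 0.0357). Without all arrays of 1 title number, 0 or 1 gene passed the interaction.

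The 2 ATF4-list genes that rose with C4BP present were Gdf15 and the glycine transporter Slc6a9 (log2 difference 0.20, adjusted p = 0.0184). The call of Slc6a9 was lost without C4BP 1 (adjusted p = 0.0572), C4BP 5 (0.0529), C4BPD 2 (0.0592) or C4BPD 4 (0.0574). Ddit3, the stress factor CHOP, differed by 0.16 with C4BP (adjusted p = 0.377) and by 0.46 without it, with no interaction shown (adjusted p = 1.00).

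ATF4 binds composite elements with the core TGATGNA. On both strands this core was found in 11.7% of the 27457 rat promoters and in 15 of the 39 promoters of the ATF4 list (38.5%), and all 5 list genes with an interaction were among these 15. The stretches around the match are shown 5′ to 3′ on each gene's strand, because these genes carried the interaction. Capitals mark the match, which lies on the opposite strand in all 5 and so reads TNCATCA. They come from RefSeq (GRCr8) at chr3:126795938-126795998 (plus strand) for Chac1, chr14:98761763-98761812 (minus) for Slc1a4, chr1:208225320-208225378 (minus) for Cars1, chr17:15193642-15193702 (minus) for Iars1 and chr3:161275520-161275580 (minus) for Trib3.
Chac1: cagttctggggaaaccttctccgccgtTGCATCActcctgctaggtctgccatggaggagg
Slc1a4: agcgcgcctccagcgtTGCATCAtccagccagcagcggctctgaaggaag
Cars1: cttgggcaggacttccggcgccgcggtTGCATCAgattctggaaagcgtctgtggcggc
Iars1: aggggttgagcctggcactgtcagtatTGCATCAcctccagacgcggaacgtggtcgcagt
Trib3: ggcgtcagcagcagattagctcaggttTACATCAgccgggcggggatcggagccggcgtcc
The match of Chac1, Slc1a4, Cars1 and Iars1 reads TGCATCA and that of Trib3 TACATCA. The promoters of Wipi1, Stap2, Klf6 and Plppr1, the other genes with an interaction, held 0 matches. The members and the motif were chosen with results of these data known.

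**Figure D4:**
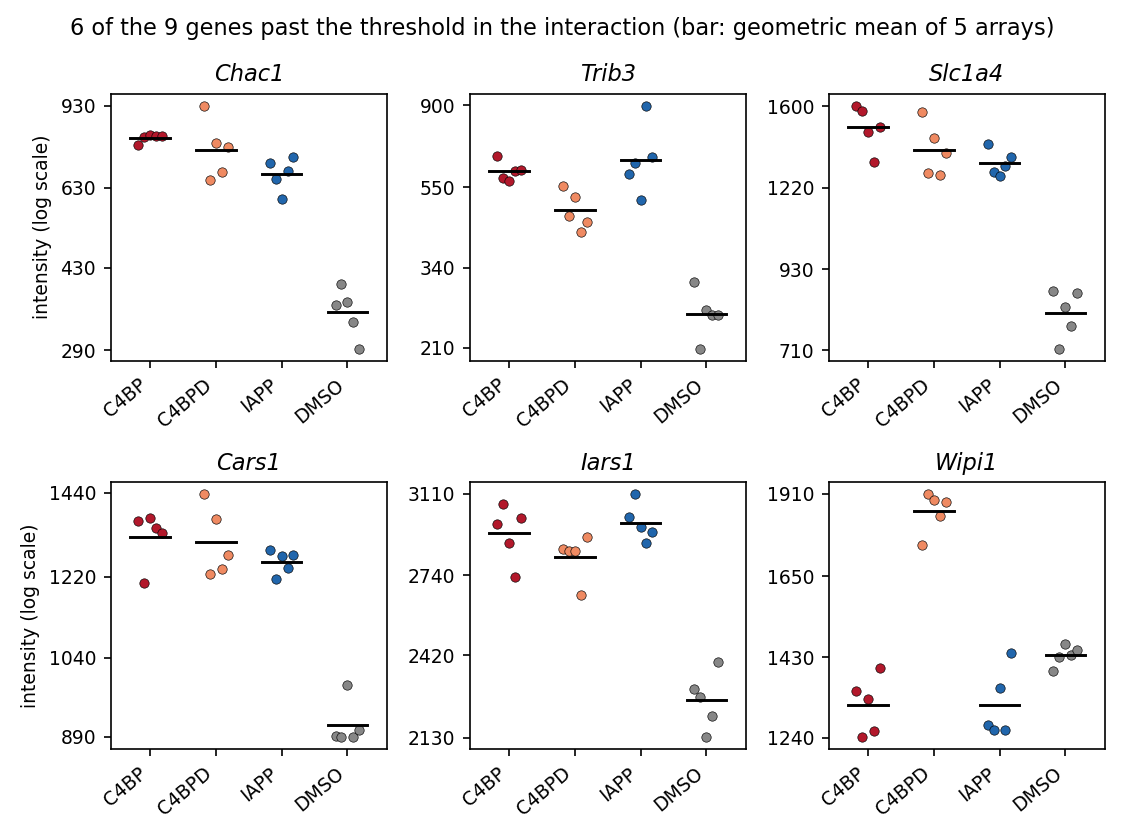
Intensity (vertical axis, log scale, a separate range for each gene) of 6 of the 9 genes past the threshold in the interaction, by title word (horizontal axis), with 1 point per array and a bar at the geometric mean of 5 arrays. For Chac1 the C4BP arrays lie within the range of the C4BPD arrays while the IAPP arrays lie above the DMSO arrays, and for Wipi1 the C4BPD arrays are above those of the other groups.

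Wipi1, a phosphoinositide-binding protein of early autophagosomes, was the only gene of the 9 that passed with C4BP present. It read 1347, 1241, 1328, 1255 and 1402 in C4BP, against 1744, 1908, 1890, 1837 and 1882 in C4BPD. The groups did not overlap, and the log2 difference was -0.50 (adjusted p = 7.87e-07). In IAPP and DMSO it averaged 1315 ± 80.1 and 1434 ± 24.8, a log2 difference of -0.13, and the interaction was -0.37 (adjusted p = 0.0229, lost in 9 of the 20 fits without 1 array, up to 0.0658). The remaining 3 had rises without C4BP and none with it. The log2 differences with and without C4BP were -0.18 and 0.28 for the adaptor Stap2, -0.10 and 0.29 for the transcription factor Klf6, and 0.00 and 0.38 for the phospholipid phosphatase-related Plppr1. Their calls were lost in 7, 17 and 18 of the fits without 1 array.

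Lipid synthesis was lower with IAPP in a few genes, while 0.754% of all genes rose and 1.62% fell. Of 19 measured genes of cholesterol synthesis and uptake, 3 fell and 0 rose, with a median of -0.07 on the log2 scale: Hsd17b7 (-0.37), Fdft1, squalene synthase (-0.24), and Msmo1, a sterol oxidase (-0.17). In IAPP against DMSO 7 of the 19 fell, where 1.97% of all genes fell. Of 16 genes of fatty acid synthesis, the desaturase Scd2 (-0.30) and Acly, the ATP citrate lyase (-0.13), fell and 0 rose. Scd2 lost its call without C4BP 2 (adjusted p = 0.0512), and Msmo1 and Acly lost theirs in 7 and 12 of the 20 fits without 1 array (up to 0.11 and 0.0975). Cholesterol export from lysosomes is served by Npc1 and Npc2, which rose by 0.24 and 0.20 on the log2 scale. With Wipi1 they were the 3 genes past the threshold among 24 of autophagy and lysosome, and the call of Npc2 was lost in 8 such fits (up to 0.0966).

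Genes of BMP signalling, whose brake genes answer the pathway itself, included 3 falls and 0 rises among 25 measured, where 1.62% of all genes fell. The pseudoreceptor Bambi averaged 615 ± 20.8 in C4BP and 749 ± 45.0 in C4BPD, a log2 difference of -0.28 (adjusted p = 0.00139). The inhibitory Smad7 averaged 131 ± 6.11 in C4BP and 169 ± 16.7 in C4BPD (-0.37, adjusted p = 0.00309). The third, Smad9, had -0.20, a call lost in 6 of the 20 fits without 1 array (up to 0.104). Id1 and Id3, their usual targets, averaged 2252 and 1430 in C4BP and 2525 and 1638 in C4BPD, and their log2 differences of -0.16 and -0.19 did not pass (adjusted p = 0.176 and 0.541). In IAPP against DMSO, Bambi and Smad7 had -0.02 and 0.08, and their interactions did not pass (adjusted p = 0.435 and 0.154). Bmp3, a BMP family member outside these 25 genes, rose by 0.54 on the log2 scale in C4BP against C4BPD.

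Iron handling had 2 rises and 1 fall among 14 genes, beside 0.754% of all genes higher and 1.62% lower. Tfrc, the transferrin receptor that imports iron, read 3882, 3727, 3649, 3672 and 3598 in C4BP, against 4290, 4543, 4637, 4281 and 4410 in C4BPD. Every C4BP array was lower, with a log2 difference of -0.26 (adjusted p = 0.00014). The iron exporter Slc40a1 (0.25) and the ferrireductase Steap3 (0.20) rose, and lost their calls in 10 and 16 of the 20 fits without 1 array (adjusted p up to 0.12 and 0.129).

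Of 29 ER chaperone and unfolded protein response genes, only Derl3, of ER-associated degradation, passed, at 303 ± 43.2 in C4BP and 411 ± 26.4 in C4BPD (log2 difference -0.45, adjusted p = 0.00496), against 8 lower and 1 higher in IAPP against DMSO. That 1 of 29 is near the share of all genes that passed (2.37%). In IAPP against DMSO 1.97% of all genes were lower and 1.41% higher. The list median in C4BP against C4BPD was -0.07, 8 of the 29 differences were positive, and 7 had an unadjusted p under 0.05. Over all 18166 genes 10169 differences were positive, and 2483 genes had an unadjusted p under 0.05. The chaperone Hspa5 (BiP) had a log2 difference of -0.07 (adjusted p = 0.279). Of 18 cytosolic heat shock genes only the cochaperone Bag3 passed (-0.22, lost without C4BP 3, C4BP 4, C4BPD 1 or C4BPD 4 at adjusted p up to 0.0788). Of 23 hypoxia and glycolysis genes, Ndrg1 fell by 0.18 and the aldolase Aldoa rose by 0.17 on the log2 scale, the second lost without C4BP 2, C4BP 5, C4BPD 3 or C4BPD 5 (up to 0.0593).

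Calls among inflammatory and cell death genes were lost in many of the fits with arrays left out. Over all genes 2.37% passed in either direction. Of 29 NF-kB and inflammatory genes 3 fell and 0 rose: the NF-kB subunit Nfkb2 (838 ± 55.2 in C4BP, 1050 ± 117 in C4BPD, log2 difference -0.32), the inhibitor-like Nfkbiz (-0.33) and the chemokine Cxcl11 (-0.25). Nfkbiz lost its call without C4BP 2 (adjusted p = 0.0579), C4BPD 3 (0.0508) or C4BPD 5 (0.0509), and Cxcl11 in 8 of the 20 fits (up to 0.118). Nfkb2 lost its call in 4 of the 5 fits without a title number (up to 0.0832). Among 18 BCL2 family and death genes, the proapoptotic Hrk rose by 0.24 and the antiapoptotic Bcl2 and Cflar had log2 differences of -0.19 and -0.26. These calls were lost in 15, 15 and 11 of the fits without 1 array (up to 0.123, 0.138 and 0.132). Of 13 p53 targets 0 passed in limma, with 2 at an unadjusted p under 0.05, the smallest p being that of Gadd45a (-0.14, adjusted p = 0.252). Over all 18166 genes 2483 had an unadjusted p under 0.05. In the mitosis and DNA replication list 1 of 30 passed, the thymidylate synthase Tyms (-0.14, lost in 8 of those fits, up to 0.112).

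**Figure D5:**
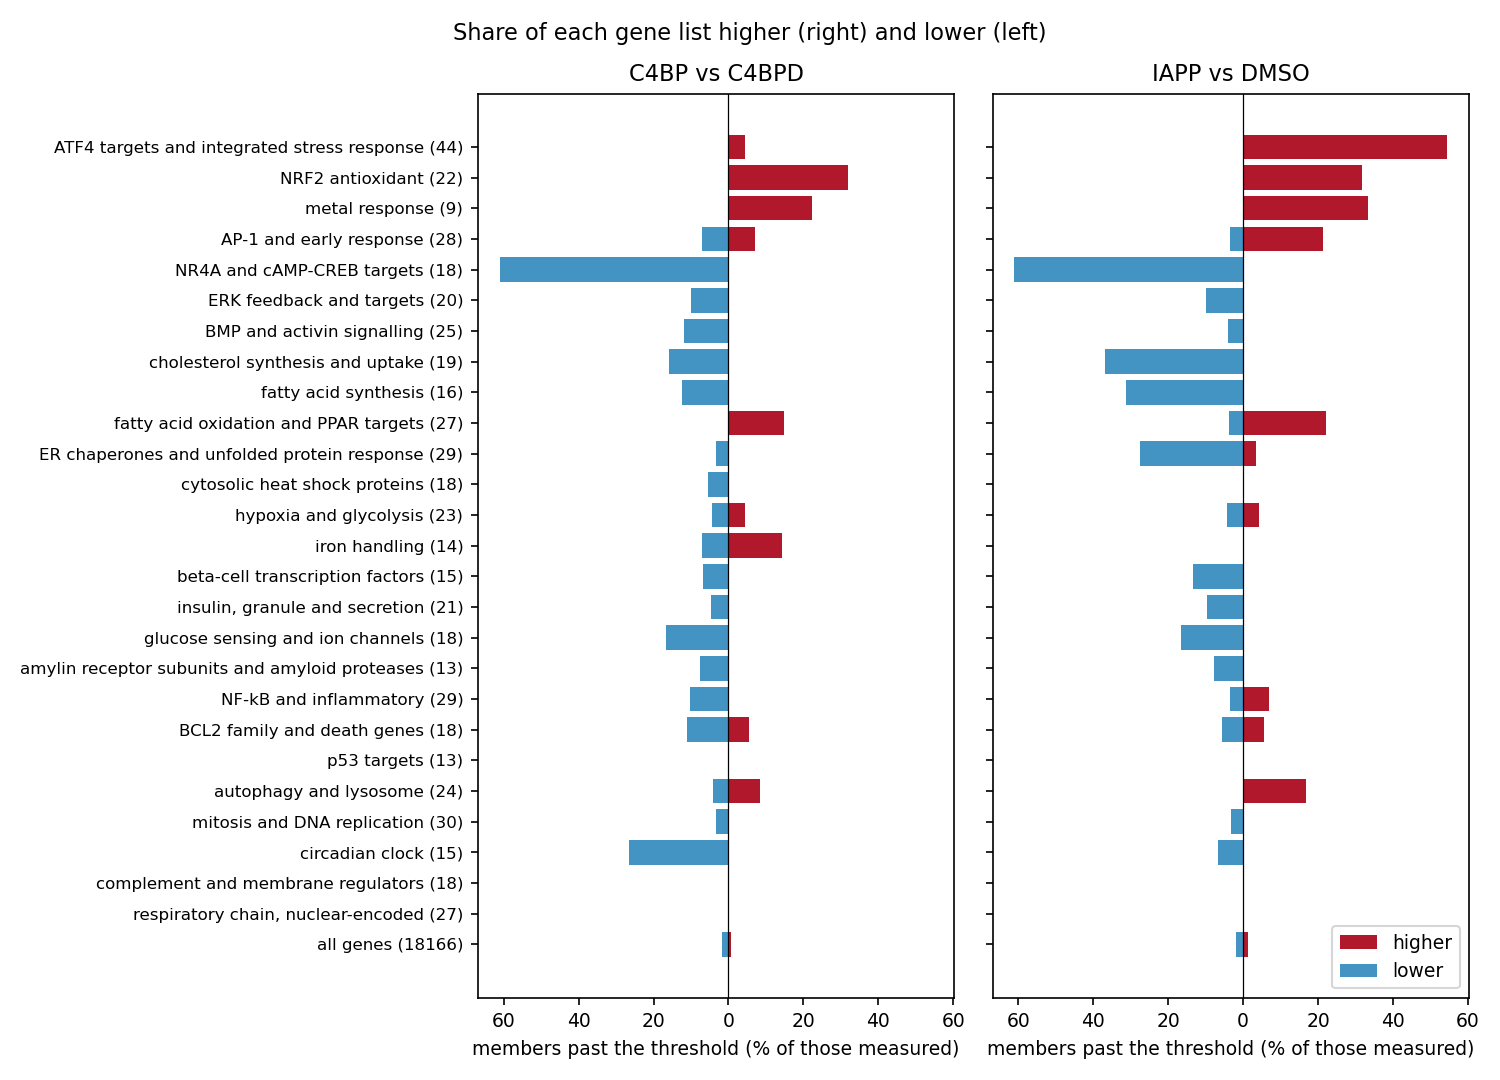
Share of the measured members of each gene list past the threshold (horizontal axes, in percent, higher to the right and lower to the left) for C4BP against C4BPD (left panel) and IAPP against DMSO (right panel), with the number measured in brackets after the list name. The NR4A and cAMP-CREB list had 11 of 18 members lower in both panels, whereas the ATF4 list had 2 of 44 members higher on the left and 24 on the right. Over all genes 1.62% were lower and 0.754% higher on the left, and 1.97% lower and 1.41% higher on the right.

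The hormone genes of the beta cell did not pass. Ins1 averaged 5812 ± 470 in C4BP and 6088 ± 697 in C4BPD, and Ins2 4345 ± 387 in C4BP and 4673 ± 908 in C4BPD, with log2 differences of -0.06 and -0.09 (adjusted p = 0.765 and 0.743). The cells' own Iapp read 11630, 10360, 12090, 10990 and 10730 in C4BP, against 12110, 11530, 12100, 11650 and 11890 in C4BPD. The groups overlapped, and the log2 difference was -0.09 (adjusted p = 0.413). Txnip, a glucose-induced inhibitor of thioredoxin, had -0.20 (adjusted p = 0.289). Of 21 genes of insulin granules and secretion 1 had a positive log2 difference, against 10169 of all 18166 genes, and the list median was -0.06. Their summed intensity lay between 113701 and 120419 in C4BP arrays and between 120225 and 126709 in C4BPD arrays. Of the 21, 1 fell, Sytl4, a granule protein known as granuphilin (-0.36, lost without C4BP 4, adjusted p = 0.05, or C4BP 5, 0.0542). Like those of the lists that follow, this count stands beside 1.62% of all genes that fell. Of 18 genes of glucose sensing and ion channels 3 fell: Cacnb2, a calcium channel subunit (-0.22), the glucose transporter Slc2a2 (-0.12) and the glucagon receptor Gcgr (-0.20), of which Slc2a2 and Gcgr each lost their calls in 7 of the 20 fits without 1 array (up to 0.0905 and 0.106), and Cacnb2 in 2 of the 5 fits without a title number (up to 0.117). Of 15 beta-cell transcription factors 1 fell, Myt1 (-0.16, lost in 12 such fits, up to 0.135). Among 13 amylin receptor subunits and amyloid-degrading proteases 1 fell, Ramp1 (-0.21, lost in 15, up to 0.108). Of 18 complement genes and membrane regulators 0 passed in limma, with 3 at an unadjusted p under 0.05 and a smallest adjusted p of 0.193 for Clu, the chaperone clusterin. Of 27 nuclear-encoded respiratory chain genes 0 passed, with 1 at an unadjusted p under 0.05, the ATP synthase subunit gene Atp5po (adjusted p = 0.262). Beside these counts for the complement and respiratory chain lists, 2483 of all 18166 genes had an unadjusted p under 0.05.

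The labelled cell type was checked by its markers. Of 14 measured beta-cell markers 0 had a lower group mean under the median of all probe sets, and their summed intensity lay between 74586 and 79405 in C4BP arrays and between 79353 and 83552 in C4BPD arrays, with 1 member, Slc2a2, past the threshold. Among markers of other cell types 0 of 35 passed in limma, with 3 at an unadjusted p under 0.05 and a smallest adjusted p of 0.154 (Pnlip, a pancreatic lipase of acinar cells). Over all genes 2.37% passed, so 0 of 35 is near that share, and 2483 of 18166 genes had an unadjusted p under 0.05. Glucagon (Gcg), an alpha-cell hormone, was bright in all arrays, at 9984 ± 231 in C4BP and 10135 ± 181 in C4BPD, while the alpha-cell markers Irx2 and Ttr averaged 180.5 and 181.5 in C4BP and 166.6 and 172.9 in C4BPD. Acinar, duct, endothelial and leukocyte markers summed to 1218 to 1423, 1318 to 1467, 296 to 393 and 336 to 417 in C4BP, and to 1231 to 1400, 1234 to 1430, 330 to 354 and 345 to 391 in C4BPD. The 7 fibroblast and stellate markers summed higher, to 3836 to 4136 in C4BP and 3835 to 4237 in C4BPD. Delta markers summed to 371 to 445 in C4BP and 360 to 442 in C4BPD. PP and epsilon markers summed to 205 to 242 and 213 to 246.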

How the data were processed

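RNA of INS-1 cells was read on 20 arrays in 4 groups of 5, grouped by the word in the title. The deposited values are intensities on a linear scale, which the authors summarised per probe set with Affymetrix Expression Console, per the submitters' processing notes. The sources used here name neither its version nor its normalization algorithm. The 36685 probe sets included 190 controls, which were dropped. Symbols are those of the platform annotation, updated by gene ID: 18511 probe sets had 1 symbol, 575 several and 17599 none. The brightest probe set stood for a gene (291 genes had more than 1). Intensities were taken to log2 and fitted with limma 3.58.1 in R 4.3.3 (lmFit, eBayes, 16 residual degrees of freedom), 2-sided. The fit was tested on simulated data. Means and SDs are of intensities. Array number, 5 per group, limits precision.

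Named genes were the 12 largest rises and falls, up to 4 called members of each list by p (or the member with the smallest p where 0 passed), the interaction genes, a set of fixed genes, and, added after their values were seen, further members of the NR4A, NRF2, metal and alpha-cell lists. Members and lists were chosen with earlier results of these data known. Title numbers were checked as pairs. Alternatives covered scaling, block, arrays, dim genes, probe sets, weights, prior and the treatment field. Promoters and microRNAs are RefSeq's (GRCr8), and 92 of 114 named genes had a promoter.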

Additional observations from a re-analysis of the deposited data

Results flagged for a closer look

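Within a group of 5 arrays, 1 array lay apart from the other 4 in 9 of 224 gene and group combinations (4.02%), and chance gives about 1 in 20. Srxn1 was low in C4BP 3 (498, the others 513.8 to 519.7) and Chac1 in C4BP 1 (772.6, the others 801.8 to 811.1). Cars1 was low in C4BP 2 (1206, the others 1330 to 1369) and high in DMSO 3 (986.5, the others 889.5 to 902). In C4BPD, array 1 was low for Nfkbiz (311.3, the others 353.4 to 364.1) and for Gclc (809, the others 918.7 to 966.2). C4BPD 3 was low for Acly (8808, the others 9163 to 9299) and for Txnip (2545, the others 3041 to 3198), and C4BPD 4 was low for Iars1 (2657, the others 2844 to 2906).

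By limma's interaction term 9 genes passed the threshold, and the log2 difference of the IAPP effects with and without C4BP is given for each. It was -0.87 for Chac1, -0.61 for Slc1a4, -0.45 for Cars1, -0.34 for Iars1 and -0.997 for Trib3. It was -0.37 for Wipi1, -0.46 for Stap2, -0.39 for Klf6 and -0.38 for Plppr1. The count of 9 became 0 over all probe sets, and 0 or 1 without all arrays of 1 title number. The calls of Klf6 and Plppr1 were lost in 17 and 18 of the 20 fits without 1 array.

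Of 17984 probe sets without exactly 1 gene symbol, 16 passed the threshold in C4BP against C4BPD, 5 higher and 11 lower.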

How the results depend on the processing

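The count of 431 genes stayed within 1.5 times under quantile scaling (443), median centring (335), without dim genes (596), over all probe sets (355), with array weights (473) and with a trended, robust prior (514). It was 223 (65 higher, 158 lower) in a fit of the C4BP and C4BPD arrays alone. The title numbers were not taken as pairs, since not every same-numbered correlation passed 0.1: deviations of same-numbered C4BP and C4BPD arrays correlated at -0.0164 to 0.281, and 1 of 5 arrays correlated best with its own number. Between C4BP and IAPP the range was -0.00899 to 0.51 with 4 of 5 best with their own number, and between C4BPD and DMSO -0.109 to 0.249 with 3 of 5, a hint of pairing from the data. The running numbers in the titles also place the 4 arrays of each title number next to each other, without naming them a block. With the number as a replicate block, 958 genes passed (349 higher, 609 lower), with 1133 in IAPP against DMSO and 18 in the interaction. The block in a fit of both groups alone, chosen after seeing the data, gave 227 (58 higher, 169 lower). Leaving out arrays, singly or by number, gave 200 to 522 genes (64 to 202 higher, 127 to 320 lower), 235 to 686 in IAPP against DMSO and 0 to 10 in the interaction. The interaction had 0 genes over all probe sets and 14 with the trended prior. Of 86 named genes past the threshold, 47 passed in every fit except by the treatment field, and 27 were lost in at least 1 fit without 1 array and 37 in at least 1 without a title number. The causes were not tested.

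Grouped by the treatment field, 0 genes passed in any comparison (0 higher, 0 lower), and 82 of 112 named log2 differences turned in sign. The 112 included 9 interaction differences, of which 0 turned, and all 82 were of C4BP against C4BPD. Turned differences were -0.41 for Mt1, -0.36 for Chac1, -0.34 for Mt1f, -0.33 for Trib3, -0.32 for Jun, -0.31 for Cpt1a, -0.21 for Atf3, -0.20 for Hmox1 and Acaa2, -0.17 for Osgin1. Further ones were -0.16 for Uap1l1, -0.15 for Eci2 and Lgals3, -0.13 for Slc1a4, -0.12 for Cars1, -0.11 for Slc25a20 and Klf11, -0.10 for Srxn1, -0.088 for Plppr1, -0.085 for Fabp3, -0.079 for Gclc. Further ones were -0.073 for Runx1t1, -0.069 for Ephx1, -0.063 for Slc40a1, -0.061 for Drd2, -0.059 for Gdf15, -0.053 for Gclm, Iars1 and Txnrd1, -0.051 for Sting1 and Flcn, -0.048 for Npc1, -0.034 for Hrk. Further ones were -0.031 for Slc6a9, -0.017 for Ddit3, -0.0080 for Egr4, 0.011 for Tyms, 0.012 for Crem, 0.016 for Iapp, 0.017 for Nr4a2, 0.018 for Per1, 0.029 for Sidt1, Fos and Slc2a2. Further ones were 0.031 for Ciart, 0.033 for Gcgr, 0.034 for Ins2, 0.035 for Acly, 0.037 for Ndrg1, 0.042 for Cacnb2, 0.044 for Trpa1, 0.046 for Kcna4, 0.047 for Myt1. Further ones were 0.048 for Sytl4, 0.051 for Hspa5, 0.057 for Calb1, 0.058 for Nr4a3, 0.062 for Nfil3, 0.069 for Pde10a, 0.075 for Grpr, 0.080 for Cflar, 0.10 for Bag3 and Txnip. Further ones were 0.11 for Fdft1 and Sik1, 0.12 for Nr4a1, Cep85l, Hsd17b7, Derl3, Tfrc and Gabra2, 0.13 for Satl1, Msmo1 and Ramp1, 0.14 for Cytip, 0.15 for Dusp6, Pde7b and Kcnh1, 0.16 for Scd2, 0.17 for Vdr, 0.20 for Tmem215 and F3. For uncalled genes near 0 the sign turned with array weights (Ins2, 0.0048) or with arrays left out, where Ins1 ran between -0.14 and 0.0037, Ins2 between -0.15 and 0.018, Cars1 between -0.0092 and 0.050 and Plppr1 between -0.017 and 0.035.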

Other observations

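The following 9 genes, on none of the lists, were picked after their values were seen, for having passed in C4BP against C4BPD, and stand as single values. The irritant-gated channel Trpa1 fell by 0.50 on the log2 scale (limma, adjusted p = 1.79e-05), and the potassium channel genes Kcnh1 and Kcna4 fell by 0.48 and by 0.52. The GABA receptor subunit Gabra2 fell by 0.53 (adjusted p = 0.00505) and the receptor of gastrin-releasing peptide, Grpr, fell by 0.50 (adjusted p = 0.00162). Gabra2 lost its call without the arrays of title number 5 (0.0641) and Grpr in the blocked fit of both groups alone (0.0854). Sting1, a sensor of cyclic dinucleotides, rose by 0.41 on the log2 scale (adjusted p = 0.000134). Flcn, folliculin, a regulator of lysosomal nutrient signalling, rose by 0.36, Lgals3, galectin-3, which binds damaged lysosomes, by 0.44, and the transcription factor Klf11 by 0.38.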
